A study of Mus musculus with 6 samples.

Results

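The clusters described here are positions deep inside introns that NOVA2 crosslinked to in embryonic mouse cortex and that no NOVA1 cluster of the same strand overlapped. A cluster is a stretch of genome covered by overlapping CLIP tags, and a cluster was taken when most of its bases lay in introns of the strand, when its midpoint lay more than 500 nt from every exon edge of its host gene, and when it was absent from the NOVA1 list by position. There were 21292 such clusters among the 36591 NOVA2 clusters and the 46579 clusters of both lists. They were selected on measured values, namely the positions and tag counts that made each list, so their lack of overlap with NOVA1 is given as a description with no test. The study immunoprecipitated NOVA2 in 3 libraries and NOVA1 in 3 libraries from wild-type cortex of CD1 mice at embryonic day 18.5. The 3 libraries of each protein were pooled into 1 cluster list, so no value per library could be given and clusters are not replicates. Every interval below is a 95% interval for counting error only.

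NOVA1 and NOVA2 are closely related neuronal RNA-binding proteins that read YCAY, a tetramer of C and A between pyrimidines, and regulate alternative splicing from sites in the pre-mRNA. Introns are removed from the transcript by splicing, so binding deep inside an annotated intron is read here as contact with intron RNA, before or after its removal. Genes of synapse formation and neuronal adhesion carry some of the longest introns of the genome, and sites far from exons in them are far from the splice sites that NOVA proteins are best known to act on.

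Sequences are shown for the clusters with most tags. For each the 30-nt window with most YCAY is printed in the sense of the transcript, from the mm9 genome. Each YCAY is in capitals, where Y is C or T. A window was thus chosen for its YCAY and need not be where NOVA2 was crosslinked. These are the 10 highest clusters by tag count.
Arpp21, intron 34, chr9:112010440-112010469, minus strand, 336 tags: TCATCACacCCACatctggatcctccTCAC
Ttc28, intron 6, chr5:111572783-111572812, plus strand, 287 tags: CCACttagCCATtacctCCACtcagCCATt
Robo1, intron 3, chr16:72793346-72793375, plus strand, 252 tags: CCACCACCACCATCACCATCACCATCATca
Ift88, intron 23, chr14:58124098-58124127, plus strand, 250 tags: TCATttgttgCCATcTCACtaattctgccg
Vash2, intron 8, chr1:192781194-192781223, minus strand, 228 tags: TCACCCACatTCACCACaTCATctctgacc
Rbfox1, intron 1, chr16:6995212-6995241, plus strand, 225 tags: catctccTCATgatttcCCACactgcTCAT
Arpp21, intron 8, chr9:112106328-112106357, minus strand, 223 tags: tatgcactaacactTCACttttagctTCAT
Opcml, intron 3, chr9:28103847-28103876, plus strand, 221 tags: CCATCCATCATTCATTCATacaTCACCCAT
Rbfox3, intron 4, chr11:118733958-118733987, minus strand, 213 tags: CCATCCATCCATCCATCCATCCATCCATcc
Epha3, intron 3, chr16:63766420-63766449, minus strand, 197 tags: CCACaTCATCATagTCACctaTCACCATct

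These windows differed in how YCAY was packed. Robo1, the receptor for Slit guidance cues, had 9 YCAY in 30 nt and 26 in its 532-nt cluster, and the Rbfox3 window was an array of CCAT repeats. Rbfox3 encodes the neuronal nuclear antigen NeuN, a splicing regulator. The second cluster of Arpp21, a cAMP-regulated phosphoprotein gene, had 2 YCAY in its window and 5 in 259 nt. Opcml, an IgLON adhesion gene, held 60 YCAY in 559 nt, the highest number in any of the clusters, equaled by a cluster of Ptprn2 and one of Cacna2d1.

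Absence from the NOVA1 list did not mean distance from it. The NOVA1 cluster nearest to the highest Arpp21 cluster began 18 nt away and held 15 tags against 336. For Ttc28 a NOVA1 cluster of 11 tags lay 237 nt away, for Robo1 one of 10 tags 222 nt away, and for Rbfox1 one of 15 tags 692 nt away. In the other 6, NOVA1 clusters lay 2.66 kb (Rbfox3) to 1936.36 kb (Vash2) away.

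The highest NOVA2-only cluster of each of 4 leading host genes held 2 to 4 YCAY in the window with most.
Ptprd, intron 3, chr4:77314721-77314750, minus strand, 164 tags: TCACtTCACtgcatctCCATacaatttcgt
Dlg2, intron 7, chr7:98553291-98553320, plus strand, 125 tags: taTCATttaCCATataTCATataTCATaat
Nrxn3, intron 24, chr12:90815996-90816025, plus strand, 101 tags: CCACtttaaagggtggtggttggtttTCAT
Nrg3, intron 1, chr14:40108750-40108779, minus strand, 151 tags: ttTCATtttagccttgtgaatatgtaTCAT

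The Nrg3 cluster had its only 2 YCAY near the ends of this window, and its cluster was 104 nt wide. The Ptprd cluster held 15 YCAY in 447 nt.

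Introns were the majority class for 27293 of the 36591 NOVA2 clusters (74.6%), and 24699 of these (90.5%) were deep. Of the deep clusters 86.2% (85.8 to 86.6) had no NOVA1 overlap, against 77.9% of NOVA2 clusters of every class, and against 83.4% (81.9 to 84.8) of the intron clusters within 500 nt of an exon edge. The NOVA1 list was shorter, with 9988 clusters, of which 3565 were deep in introns, and 151 of those (4.24%) had no NOVA2 overlap. The study lists more unique tags for its NOVA2 libraries than for its NOVA1 libraries, and both lists begin at the same count of 10, so a site of equal relative strength was listed more readily for NOVA2. Among deep NOVA2 clusters with at least 20 tags the share without NOVA1 was 72.2%, and with at least 30 tags 59.7%. Unequal depth and unequal binding cannot be told apart in these values.

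Most of the clusters were small. Their tag counts, a value whose minimum the study describes as a peak height, had a median of 16, quartiles of 12 and 25 and a maximum of 336, whereas the 3407 deep intron clusters that overlapped NOVA1 had a median of 65 tags. They made up 58.2% of the NOVA2 list. Median width was 108 nt, against 158 nt for the shared clusters.

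The share of deep clusters without NOVA1 fell along the tag count, which is the value that set the lists. It was 98.3% of clusters with 10 to 14 tags, 92.1% at 20 to 29 tags, 52.8% at 50 to 99 tags and 14.8% (13.0 to 16.9) at 100 tags or more. Clusters with 10 to 14 tags were 42.0% of the members and those with 100 tags or more 0.864%, or 184 clusters. The strongest deep sites of NOVA2 were thus mostly shared, and the NOVA2-only class was mostly made of sites near the lower limit of the list.

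At the exon-edge limit, 299 members up to 100 nt inside it had a median of 17 tags, and 342 NOVA2-only intron clusters up to 100 nt outside it a median of 16. At the tag limit 2510 members had 10 tags and 2007 had 11. The 258 members with a NOVA1 cluster within 50 nt but no overlap had a median of 17 tags, and the 143 clusters excluded by an overlap of at most 50 nt a median of 28.

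The clusters lay in long introns. Of the 21292, 21268 could be placed in an intron of their host gene, and the median host intron was 66.8 kb long (64.5 to 68.9, quartiles 17.6 and 169 kb). The 24 others included 21 in Eif4e3, whose annotated span is extended by a retained-intron transcript. Shared deep clusters lay in introns with a median of 97.0 kb, and NOVA2-only clusters within 500 nt of an exon in introns with a median of 2.53 kb. Counted once each, the 7349 introns with a member had a median of 16.0 kb, against 2.82 kb for the 113362 introns of protein-coding genes long enough to hold one.

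A long intron offers more sequence, so clusters were counted per Mb of deep intron sequence, in the 2069 protein-coding genes with a NOVA1 cluster in an exon. These genes were taken so that introns of RNAs bound in the cortex were compared with one another. Density was 34.4 clusters per Mb (30.2 to 39.0) in introns of 1 to 3 kb, 39.0 (37.1 to 41.0) at 10 to 30 kb and 45.9 (44.2 to 47.7) at 30 to 100 kb. It was 78.9 (76.3 to 81.5) at 100 to 300 kb and also 78.9 (74.0 to 84.1) at 300 kb or more. Nearly every such long intron was a host, with 270 of 298 introns of 100 to 300 kb and 19 of 19 of the longest class holding at least 1 member. The longest class had 11.97 Mb of deep sequence, and its longest annotated intron was 4384 kb. The 2 annotated introns over 2 Mb with members held only 19 members between them. That 4384-kb intron lowers the density of the longest class, which was not computed without it.

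**Figure D1:**
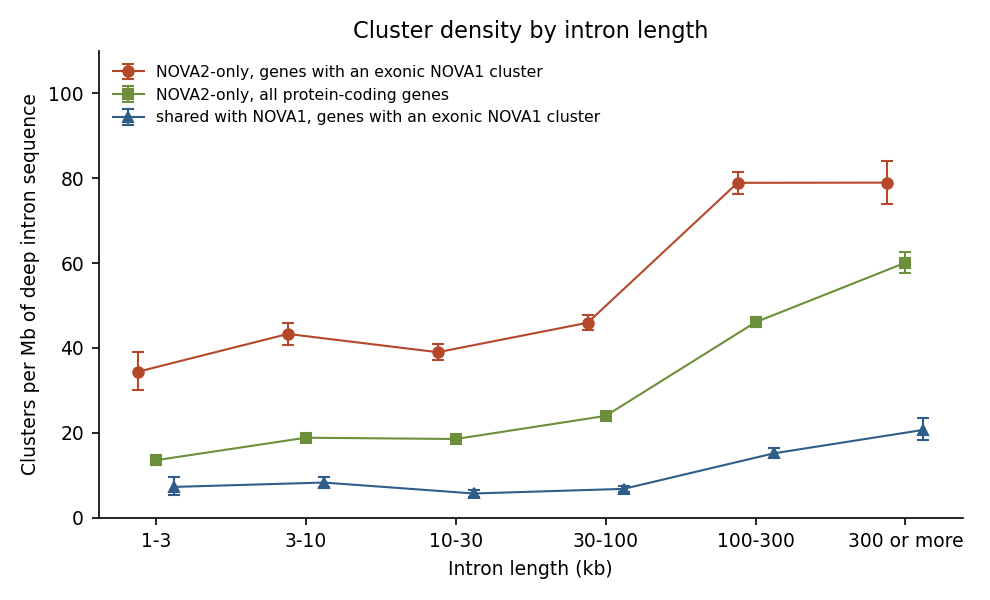
Clusters per Mb of deep intron sequence (vertical axis) by intron length class in kb (horizontal axis), with 95% Poisson intervals, for NOVA2-only clusters in genes with an exonic NOVA1 cluster (circles), in all protein-coding genes (squares), and for shared deep clusters (triangles). NOVA2-only density in the first set stayed between 34.4 and 45.9 up to 100 kb and was 78.9 above. The longest class includes an annotated intron of 4384 kb with few members.

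Density in introns of 100 kb or more was 2.02 times (1.91 to 2.14) that in introns of 10 to 30 kb. The 167 genes with introns of both classes, pooled, gave 77.5 clusters per Mb in the long ones and 33.1 in the shorter ones. The ratio of these pooled values was 2.34 (2.10 to 2.61). No ratio was taken inside single genes, so differences between genes in density are not removed. Without the 20 host genes with most members the ratio was 1.505 (1.41 to 1.60). Shared deep clusters had 5.73 per Mb at 10 to 30 kb, 15.2 at 100 to 300 kb and 20.7 at 300 kb or more, so the density of both classes was higher in long introns. In all protein-coding genes, expressed or not, NOVA2-only density was 18.6 at 10 to 30 kb and 60.1 at 300 kb or more.

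The clusters were not confined to the neighborhood of the 500-nt limit. Their midpoints were a median of 13.1 kb (12.6 to 13.5) from the nearest exon edge, and 18.5 kb for shared clusters. Members farther than 10 kb from any exon of the gene were 55.5% of the class, those farther than 100 kb 7.80%, and those between 0.5 and 1 kb 6.66%.

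Within long introns the clusters were denser toward the upstream exon. In introns of 100 kb or more, 33.9% of 8508 members (32.9 to 34.9) lay in the first of 4 equal parts from the 5′ end, 31.6% in the second, 22.4% in the third and 12.1% (11.5 to 12.8) in the last. Shared clusters followed the same order, with 38.6%, 33.7%, 20.04% and 7.65%. In all introns of 10 kb or more the members' shares were 31.2%, 30.5%, 23.1% and 15.2%. Both classes thus fell in every step from the upstream to the downstream exon.

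The first intron of a gene held about the share of members that its sequence makes up. In the genes with an exonic NOVA1 cluster 23.4% (22.6 to 24.3) of members lay in the first intron of the gene model, which held 23.1% of the deep sequence, and the value for shared clusters was 27.2% (25.2 to 29.3). Introns next to a cassette exon, an exon that some transcripts of the gene skip, had 45.1 members per Mb (34.0 to 58.7) at 1 to 3 kb against 32.1 (27.7 to 37.1) in other introns of that length, and 58.7 (52.0 to 66.0) at 3 to 10 kb against 39.7 (37.1 to 42.6). At 10 to 30 kb the values were 45.7 (41.1 to 50.7) and 37.4 (35.3 to 39.6), and at 30 to 100 kb 52.5 (48.1 to 57.2) and 44.6 (42.8 to 46.5). At 100 to 300 kb the intervals overlapped. The values were 73.1 (66.6 to 79.97) in 43 introns next to a cassette exon and 79.9 (77.1 to 82.7) in 255 others. Above 300 kb 1 intron next to a cassette exon had 114 against 78.0 in 18 others. Those others include the sparsely bound 4384-kb intron, so the 2 values are not compared.

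How close adjacent members of an intron lay depended on the tag minimum. The midpoints of neighbors were a median of 2.95 kb apart (2.83 to 3.10, 13919 gaps, quartiles 0.658 and 9.68 kb), and those of neighboring shared clusters 8.65 kb. Gaps of at most 0.2 kb were 10.5% of the total, and gaps over 20 kb 10.7%, against 6.87% and 29.2% for shared clusters, which were fewer per intron. Another member lay within 1 kb of 35.4% of members (34.8 to 36.1), within 0.5 kb of 25.7% and within 10 kb of 68.9%. With members of at least 20 tags the median gap was 6282 nt and the share with another within 1 kb 20.9%, and with at least 30 tags 10135 nt and 13.6%. Counting shared clusters as neighbors too, 39.2% had a deep NOVA2 cluster within 1 kb.

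**Figure D2:**
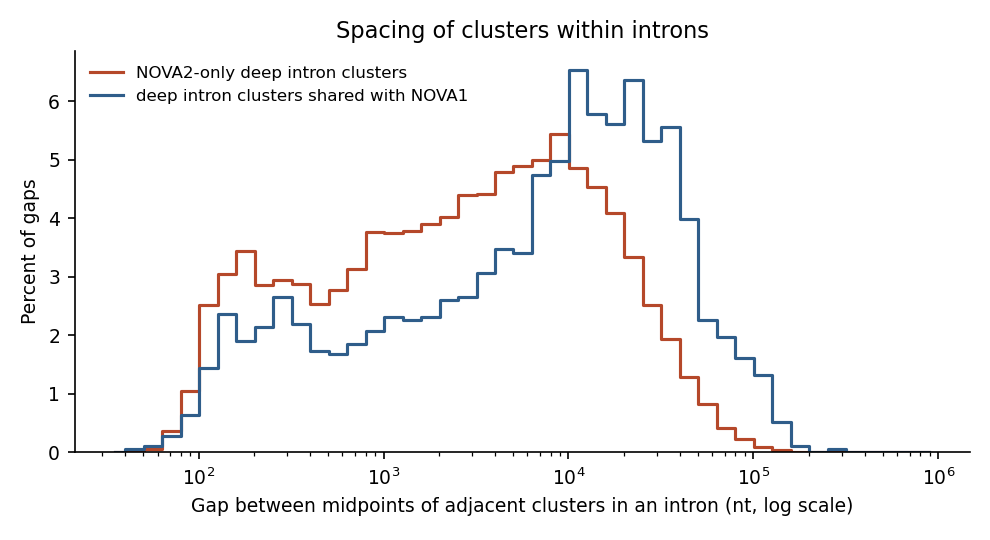
Percent of gaps (vertical axis) by the distance between midpoints of adjacent clusters in an intron (horizontal axis, nt, log scale) for NOVA2-only deep clusters and for shared deep clusters. Both curves run over several orders of magnitude, with a shoulder below 1 kb, and the medians were 2.95 kb and 8.65 kb.

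The members were unevenly divided among introns. Members alone in their intron were 19.9% of the class, and those in introns with 10 or more were 36.7%, from 347 introns. Chaining members at most 1 kb apart gave 75 runs of at least 5, which together held 439 members.

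The longest run was in Kcnk9, the gene of a two-pore potassium leak channel. Its 12 members lay in 3362 nt of the 33.0-kb intron (chr15:72365715-72369076, minus strand), with 12 to 76 tags each. A NOVA1 cluster of 11 tags lay 11 nt from the member at one end. The 3 with most tags are shown because they carry the run.
Kcnk9, chr15:72366572-72366601, 76 tags: ttctCCATgtaaCCATaatTCATtacCCAT
Kcnk9, chr15:72368160-72368189, 71 tags: TCATCACTCACttgTCACtcagttctCCAC
Kcnk9, chr15:72365928-72365957, 41 tags: CCATTCATggtaacaccCCACCACacacac

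These clusters held 30, 18 and 15 YCAY, and each of the other 9 members of the run held at least 3. A run of 11 in intron 2 of Nrg3 (chr14:39639667-39643065, minus strand) had 10 to 42 tags each, with no NOVA1 cluster within 1 kb. It lay at least 158.15 kb from any exon. Celf2 held a run of 10 members and another of 9, and Nrxn3 and the potassium channel gene Kcnq3 a run of 9 each.

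The host genes numbered 3396, of which 3329 were protein-coding, or 14.9% of the 22380 protein-coding genes. Of protein-coding genes with at least 0.1 Mb of deep intron 65.6% were hosts. The hosts were long, with a median of 86.4 kb against 15.4 kb for all protein-coding genes, and the number of members followed the length of deep intron with a Spearman correlation of 0.609 over the 3396 genes, which share the pooled libraries. A gene's clusters also depend on how much of its RNA the tissue held, and fewer cells of a type and less RNA per cell cannot be told apart in this tissue. The distribution was uneven: 1321 hosts had 1 member, 461 had at least 10 and together held 64.5% of members, and 223 held 50%.

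Ptprd, a receptor tyrosine phosphatase of synapse formation, led with 404 members in 19 of its 56 introns (chr4:75587142-77857865, minus strand). It was followed by Dlg2, a postsynaptic scaffold, with 226 members, Nrxn3, a presynaptic adhesion molecule, with 199, and Nrg3, a ligand of ErbB4, with 197. Odz2, a teneurin, had 174, Celf2, an RNA-binding protein gene, 173, Ctnna2, a neuronal catenin, 170, Opcml 168 and Auts2, a neurodevelopmental regulator, 135. The 20 leading hosts held 3171 members, or 14.9% of the class. The lower 10 of these 20 hosts had 98 (Fam190a, now Ccser1) to 126 members (Cadm2 and Macrod2).

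Among the other leading hosts, Nlgn1, Lsamp and Lingo2 encode adhesion proteins of the synapse or neuronal surface with 113, 107 and 109 members, and Magi2 a scaffold with 111. Fgf14, which binds sodium channels, had 120, Rbfox1, a splicing regulator, 110, and Csmd1, a complement-related membrane protein, 118. The share of deep NOVA2 clusters without NOVA1 ran from 75.8% in Nrg3 to 92.0% in Macrod2, against 86.2% over all genes. It was above that value in Ptprd, Dlg2, Ctnna2, Opcml and Macrod2 and below it in the other leading hosts. Macrod2 also had the lowest density of the 20, 64.2 members per Mb, and Celf2 the highest, 337.

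**Figure D3:**
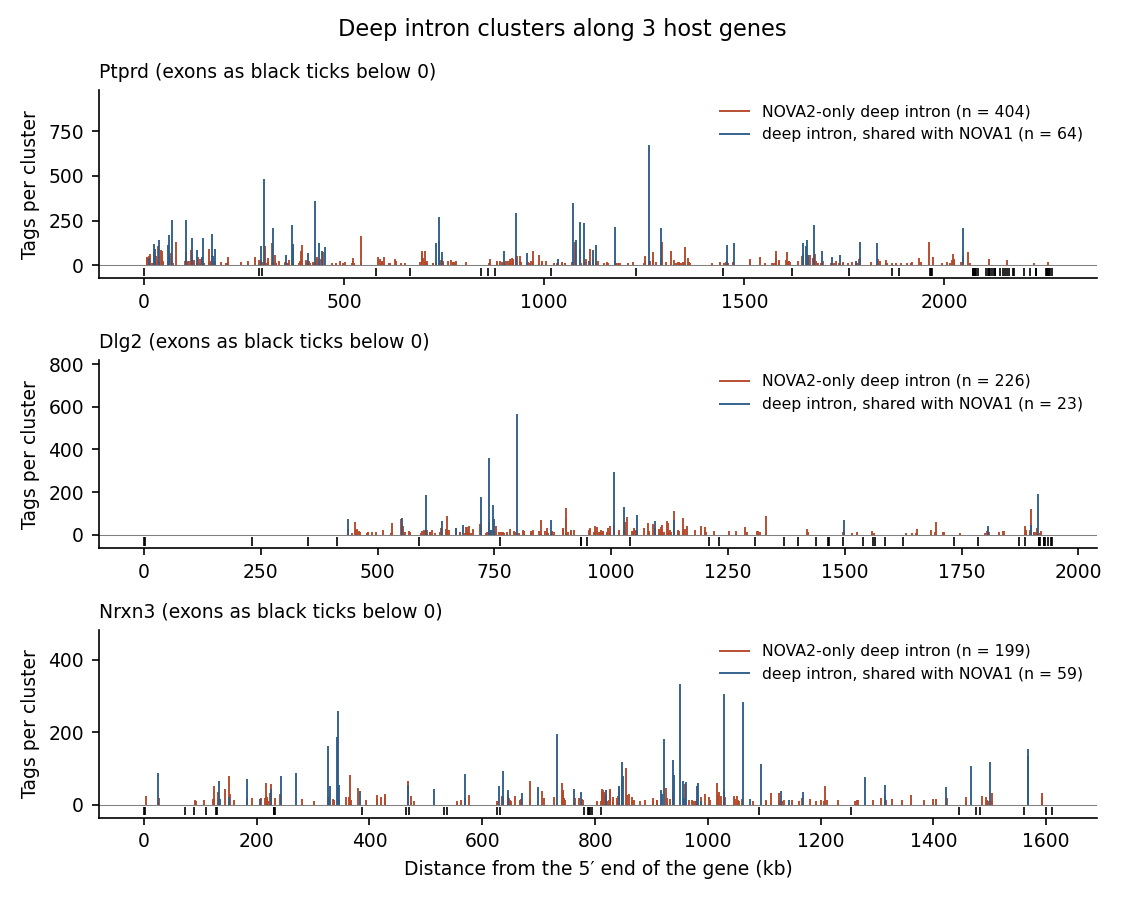
Tags per cluster (vertical axis) along Ptprd, Dlg2 and Nrxn3 by distance from the 5′ end of the gene in kb (horizontal axis), for NOVA2-only deep clusters and shared deep clusters, with exons as black ticks. The 404, 226 and 199 NOVA2-only clusters are spread between taller shared ones.

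Along Ptprd the 404 members had 10 to 164 tags and the 64 shared clusters 11 to 675 tags. In Dlg2 the first member lay 436 kb from the 5′ end of the 1945-kb gene model and the first shared cluster beside it, so the upstream introns held neither. In Nrxn3 the first member lay 3.40 kb from the 5′ end and in Ptprd 7.42 kb.

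Single introns carried much of these counts. Intron 1 of Nrg3 held 115 members in 459.9 kb, at 251 per Mb, with 50 shared clusters among them and a median gap of 1.87 kb between members. Intron 10 of Ctnna2 held 111 members in 454.8 kb with 19 shared clusters, intron 1 of Cadm2 109 in 666.8 kb, intron 1 of Fgf14 93 in 483.6 kb and intron 1 of Ptprd 84 in 286.0 kb. The 5 introns together held 512 members.

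The hosts with the highest density among those with at least 0.1 Mb of deep intron included shorter genes. Celf2 had 337 members per Mb, Lrfn5, a synaptic adhesion gene, 243, Arpp21 215 and Zeb2, a transcription factor of cortical development, 209. The median over 1219 such hosts was 27.9 per Mb (quartiles 11.4 and 54.8). In Zeb2 none of the 22 members had a shared cluster beside it, whereas Lrfn5 had 29 shared clusters and 78 members.

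Gene groups differed in how many of their genes were hosts and in density, which is read against 14.9% of protein-coding genes and 26.5 members per Mb over all of them, and against 49.5% and 53.7 per Mb in genes with an exonic NOVA1 cluster. Median deep intron was 7.1 kb over all protein-coding genes, 371 kb in synaptic adhesion genes and 77.2 kb in splicing regulators. Among genes with at least 0.1 Mb of it, 65.6% of protein-coding genes were hosts, and 425 of 451 with an exonic NOVA1 cluster. At that length 31 of 31 synaptic adhesion genes, 14 of 14 splicing regulators and 32 of 34 axon guidance genes were hosts. The part of length in the host counts was not tested. Synaptic adhesion genes were hosts in 37 of 44, with 2429 members and 96.3 per Mb, led by Ptprd and Nrxn3. Splicing regulators were hosts in 19 of 30 at 106 per Mb, and Celf2 (173 members) and Rbfox1 (110) held most of their 442 members. Khdrbs2 had 44, Ptbp2 13, Nova1 4 and Nova2 none.

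Cytoskeleton and scaffold genes were hosts in 28 of 30 at 68.0 per Mb, transmitter receptor genes in 32 of 37 at 57.3 and voltage-gated channel genes in 28 of 33 at 55.2. Grik2, a kainate receptor subunit, led the receptors with 96 members, and Kcnip4, a potassium channel partner, led the channels with 87. Dab1, the adaptor of Reelin signaling, had 95. These densities lay at or above the 53.7 per Mb of genes with an exonic NOVA1 cluster.

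Axon guidance genes were hosts in 36 of 53 with 550 members at 48.8 per Mb, cadherin and catenin genes in 23 of 26 at 51.2, and cortical transcription factor genes in 21 of 33 at 53.4. Among guidance receptors the netrin receptor Dcc had 68, Robo2 57, Unc5d 48 and Epha5 44. In the transcription factor list the neurodevelopmental regulator Auts2 held 135 of the 444 members, at 126 per Mb, followed by Myt1l with 47 and Tcf4 with 38. The density of this list was not computed without Auts2. Calcium and cyclic nucleotide signaling genes were hosts in 24 of 27 at 28.2 per Mb, near the value over all protein-coding genes.

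Lists of markers of other cell types had 0 to 2 hosts each, against 14.9% of all protein-coding genes, and fewer members per Mb than the 26.5 over all of them. Microglial markers were hosts in 0 of 8 at 0 per Mb, astrocyte and radial glia markers in 2 of 12 at 9.28 (Slc1a3 with 2 members and Tnc with 1), oligodendrocyte markers in 1 of 8 at 6.69 and endothelial markers in 1 of 8 at 2.40 (Flt1, 1 member). Pan-neuronal markers were hosts in 7 of 11 with 64 members at 50.6 per Mb. The synaptotagmin gene Syt1 with 35 and the growth cone gene Gap43 with 12 held most of them. Syt1, Gap43, Dcx and Syn1 had 70.5, 137, 98.0 and 39.8 per Mb. Snap25, Rbfox3 and Stmn2 had 16.8, 17.6 and 21.7, below the value over all protein-coding genes. Tubb3, Nefl, Nefm and Elavl3 had no member, so the neuronal list was not uniform. These marker genes have little deep intron, 0.196 Mb over the 8 microglial genes, so these densities rest on few members.

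Most members lay in genes that NOVA1 also bound elsewhere. A NOVA1 cluster was present in the host gene of 80.6% of members (80.1 to 81.2) and in the same intron for 50.02%, and within 1 kb of 9.30%, 10 kb of 31.2% and 100 kb of 74.4%. Counted by gene the picture was different, since the hosts without any NOVA1 cluster, 1771 of 3396 (52.1%), held the rest of the members. Shared deep clusters were present in 951 hosts, which were 28.0% of the hosts and 88.2% of the 1078 genes with a shared deep cluster. A NOVA1 cluster in the 3′ UTR was present in 26.9% of hosts. Of all 22380 protein-coding genes 2803 had a NOVA1 cluster of any class, and 5012 a NOVA2 cluster. The shares above were not computed for other NOVA2 clusters, so they are not read as particular to the members.

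YCAY was the sequence feature that the rule did not use. It began at 43.9 of every 1000 positions in the members and at 18.8 in flanks 200 to 500 nt from either end, a ratio of 2.34 (2.32 to 2.36). The ratio was 2.61 (2.57 to 2.65) in shared deep clusters and 2.59 (2.53 to 2.65) in NOVA2-only intron clusters within 500 nt of an exon. It was between 2.31 and 2.35 in each tag class from 10 to 99 tags, and 2.70 (2.54 to 2.86) in the 184 members with 100 tags or more. The excess in members did not rise with tags below 100. In shared deep clusters, which had more tags, the ratio was 2.37 (2.17 to 2.59) at 10 to 14 tags and 2.41 (2.20 to 2.64) at 15 to 19. At 20 to 29, 30 to 49 and 50 to 99 tags it was 2.57, 2.56 and 2.55, above the members. At 100 tags or more it was 2.72 (2.65 to 2.78), near the members' value.

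**Figure D4:**
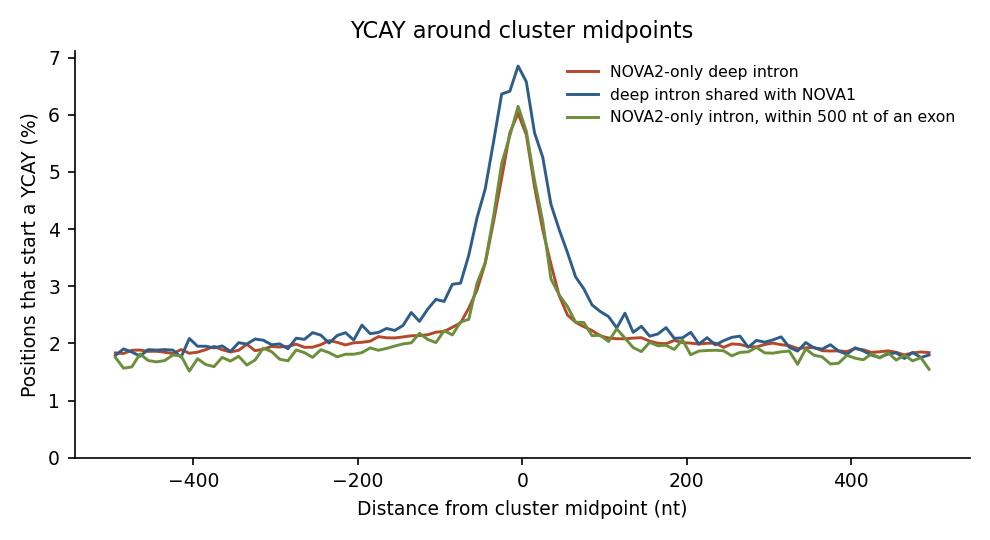
Percent of positions that start a YCAY (vertical axis) by distance from the cluster midpoint in nt (horizontal axis), in 10-nt bins, for NOVA2-only deep clusters, shared deep clusters and NOVA2-only intron clusters within 500 nt of an exon. The NOVA2-only deep curve peaked at 6.03% next to the midpoint against 1.88% beyond 300 nt.

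At least 1 YCAY was present in 99.6% of members and in 79.5% of 38511 windows of the same widths 1 kb away in the same intron that held no cluster. At least 5 were present in 48.98% against 8.10%, and at least 3 within 30 nt in 57.3% against 9.23%. A YCAY directly followed by another was present in 21.1% against 3.87%, and TCAT in 88.5% against 44.1%. Successive YCAY were a median of 11 nt apart in members, 22 nt in the windows and 9 nt in shared clusters. Searches were of the transcript strand, and matches could overlap.

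Of all tetramers UCAU was most raised over the flanks, by 1.66 on the log2 scale, followed by CAUC (1.46), CAUU (1.32), UUCA (1.19), CCAU (1.12) and UCAC (1.11). Each of these is a YCAY or overlaps one. Median T content was 37.1% in members and 31.7% in the windows, and median GC content 37.8% and 40%.

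No YCAY was present in 89 members, which had a median of 12 tags and a width of 64 nt. The Gap43 and Phactr3 members of this kind are shown for contrast, with 51 and 37 tags.
Gap43, intron 2, chr16:42277137-42277166, minus strand: tgattggggctttaaactaaacaatggcag
Phactr3, intron 3, chr2:177914242-177914271, plus strand: gtctccttacatttcctaagctcaggtcta

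The excess of YCAY was smaller where members were crowded. It was 2.81 (2.77 to 2.86) in the 4229 members alone in their intron, 2.42 (2.38 to 2.45) in introns with 2 to 4, 2.26 (2.22 to 2.30) with 5 to 9, 2.17 (2.14 to 2.21) with 10 to 29 and 1.999 (1.962 to 2.04) in the 3409 members of introns with 30 or more. The rate in the clusters themselves was 50.1 per 1000 positions in lone members and 37.2 in the most crowded introns, while the flanks had 17.8 and 18.6. Median tags were 15 in lone members and 17 in the most crowded introns, median widths 103 and 113 nt, and median intron lengths 9.46 and 297 kb. The parts of tags, width and intron length in this order were not tested.

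**Figure D5:**
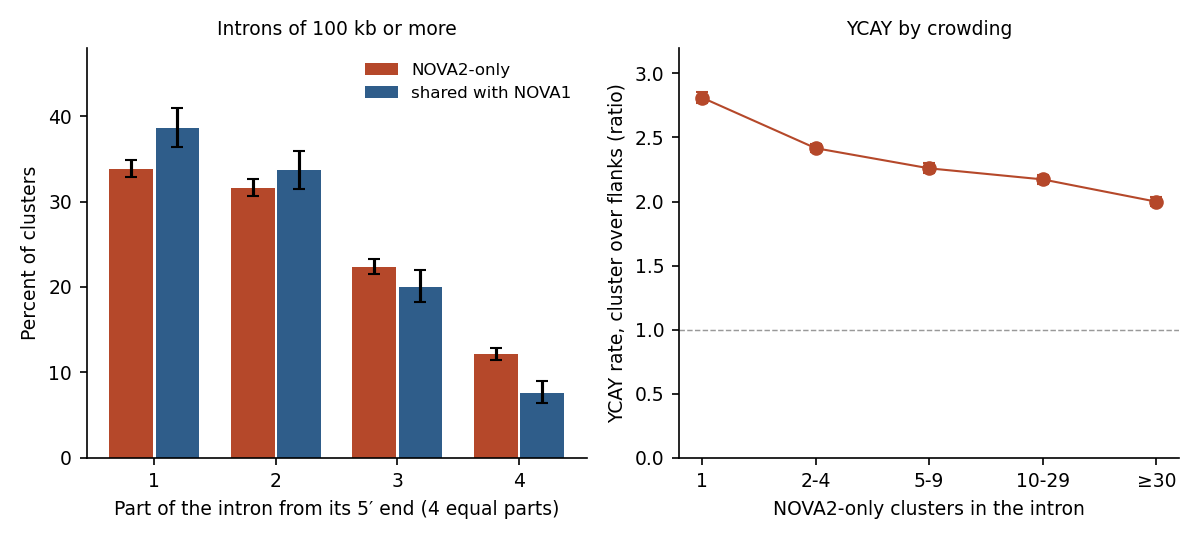
Left, percent of clusters (vertical axis) in each of 4 equal parts of introns of 100 kb or more counted from the 5′ end, for NOVA2-only and shared deep clusters, with 95% Wilson intervals; right, the ratio of the YCAY rate in NOVA2-only clusters to that in their flanks by the number of such clusters in the intron, with 95% intervals and a dashed line at 1. Shares fell from 33.9% to 12.1% for NOVA2-only clusters, and the ratio from 2.81 to 1.999.

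None of the 21292 clusters overlapped a NOVA2 cluster of the other strand and 1 overlapped a NOVA1 cluster of the other strand, 48.1% lay on the plus strand, and 0.681% lay where more than 1 gene of the strand was annotated.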

How the data were processed

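The authors aligned tags to mm9 with Novoalign, as the paper's methods and the submitters' processing notes state, and removed PCR duplicates. They deposited 1 list of clusters per protein with a tag count for each cluster, pooled over 3 libraries, with a minimum of 10. The study describes the minimum of this count as a peak height, so no sum of it over clusters is reported. Sums were used to order hosts or runs with equal numbers of members, and when clusters within 50 nt were merged. No replicate error can be read from the lists. The study gives more unique tags for NOVA2 than for NOVA1, and a fixed minimum lists more sites of a deeper library.

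Clusters were classed by GENCODE vM1 on the same build, by most bases, in the order coding sequence, UTR, noncoding exon, intron. Exons of retained-intron transcripts were left out. The host gene had most exonic bases, then was protein-coding. Introns were gaps between merged exons, and deep sequence was intron length less 500 nt at each end. Shares have Wilson intervals, medians exact binomial intervals, densities Poisson intervals and ratios normal intervals on the log scale (SciPy 1.17.1, Python 3.11.15). The assignment was tested on simulated clusters. Named were the 20 hosts with most members, the 10 highest members, the 5 introns with most members, the 5 densest hosts, the leading genes of each list and members at the limits; the runs, the genes with most YCAY, those without YCAY, and the lower-ranked genes of lists were chosen after their values were seen. The members and gene lists were chosen with earlier results of these data known. Gene names are those of the annotation. A few genes that the naming rule selects are not reported here.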

Additional observations from a re-analysis of the deposited data

How the results depend on the processing

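Across 7 results and 48 alternatives 27 moved, and 21 lay inside the main value's own interval or, for counts, within 1.5 times of it. A direction was defined only for the YCAY ratio and the density ratio, and neither was reversed. For the other results no change of direction could be scored. The density ratio for protein-coding hosts alone could not move, because its genes were already protein-coding. The share of deep clusters without NOVA1 was 80.8% when no NOVA1 cluster within 500 nt was allowed, 72.2% at 20 tags or more and 59.7% at 30. The number of clusters was 8110 at 20 tags and 4108 at 30. Median intron length was 77382 nt beyond 1000 nt from exons, 69102 nt at 20 tags, 72425 nt at 30 and 50661 nt without the 20 leading hosts. The share with a neighbor was 25.7% within 500 nt, 59.4% within 5 kb, 39.9% counting any NOVA2 cluster, 20.9% at 20 tags, 13.6% at 30, 26.7% after merging clusters within 50 nt and 32.8% without the leading hosts. The median gap was 2126 nt counting any NOVA2 cluster, 6282 nt at 20 tags, 10135 nt at 30, 3930 nt after merging and 3187 nt without the leading hosts. The YCAY ratio was 2.45 with flanks 500 to 1000 nt away, 2.40 without NOVA1 within 500 nt and 2.40 without the leading hosts. The density ratio was 2.64 over all protein-coding genes, 2.34 pooled over genes holding both intron classes and 1.505 without the leading hosts. Spacing was wider at higher minimums, where fewer clusters are counted. The cause of this and of the other moves was not tested. The alternatives restricted to genes holding both intron classes and without the leading hosts were chosen after seeing the data. No paired analysis was possible because each list pools its 3 libraries, and for the same reason no library could be left out.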
